A study of Mus musculus with 7 samples.

Results

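Transcripts of the dynactin complex were followed through light zone germinal centre B cells with and without MIZ1. The members are the 9 genes Dctn1, Dctn2, Dctn3, Dctn4, Dctn5, Dctn6, Actr1a, Actr1b and Actr10, taken by symbol from 48795 gene identifiers in the count table, and all 9 were found and passed the filter on low counts. The family was chosen by the difference of Dctn6 between the genotypes in these same libraries. The genotype contrast of the members is therefore given as a description and tests nothing about them. Of the 9 subunits, Dctn6 alone was far apart between the genotypes, about 9.67-fold lower in MIZ1KO, while its partners at the same end of the complex had nearly equal levels.

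The groups were 3 MIZ1KO and 4 Control libraries, all from spleen B cells of mice given sheep red blood cells intravenously and collected 10 days later, sorted as light zone germinal centre B cells. Sheep red blood cells are a standard antigen for raising germinal centres, and Zbtb17 is the gene of MIZ1, a BTB zinc finger protein that binds DNA and partners MYC. Sample titles carry the code MizFF for MIZ1KO and eYFP for Control. The sources used here do not give the Cre line or its promoter, the strain, the age and the sex of the animals, or whether each library is 1 animal. The p-values hence speak only of the variation among these 7 libraries, which may be partly technical. Zbtb17 itself had 5.16, 3.70 and 4.50 CPM (the gene's count relative to the scaled total of its library) in MIZ1KO, against 3.15, 3.42, 3.15 and 7.02 CPM in Control. As gene-level counts include any exon that a deletion leaves in place, this level does not check the genotype labels.

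Dynactin is a large assembly that binds cytoplasmic dynein, the motor that walks toward the minus ends of microtubules, and lets it carry cargo over long distances. Its backbone is a short actin-like filament built of Arp1. A shoulder with a projecting arm sits on top and contacts dynein and the microtubule, CapZ caps the barbed end of the filament, and a small complex of other subunits closes the pointed end. In B cells, dynein and dynactin are known for drawing B cell receptor clusters to the centre of the contact with an antigen-bearing surface, and in dividing cells they act at kinetochores and spindle poles.

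Library totals ran from 7030988 to 9482453 estimated counts in MIZ1KO and from 6896673 to 9150424 in Control, of which 3087992 to 5085019 and 3263876 to 4679820 lay outside ribosomal RNA. TEC models, mostly single-exon transcript models awaiting experimental evidence, took 0.544% to 0.923% of these remaining counts in MIZ1KO and 1.02% to 2.58% in Control. Malat1, a nuclear RNA, took 0.256% to 0.490% in MIZ1KO and 0.687% to 1.52% in Control. All 5 B cell markers and all 7 germinal centre markers had counts, and 1 of each list was called: Cd79a, of the B cell receptor, at 0.86 ± 0.22 on the log2 scale, and Rgs13, a regulator of G-protein signalling, at -1.32 ± 0.32. Summed B cell markers ran from 3142 to 3230 CPM in MIZ1KO and from 2358 to 3103 CPM in Control, germinal centre markers from 912 to 1021 and from 1049 to 1276 CPM, and light zone markers from 630 to 734 and from 557 to 758 CPM. The 6 T cell markers summed to between 1.72 and 16.9 CPM in MIZ1KO and between 0.131 and 1.56 CPM in Control, and the 5 myeloid markers to between 4.19 and 21.1 and between 3.42 and 7.22 CPM. Plasma cell markers summed to 109 to 181 CPM in MIZ1KO and 153 to 336 CPM in Control, erythroid markers to 60.7 to 475 and 112 to 418 CPM, and NK cell markers to 0.215 to 1.70 and 0.262 to 4.82 CPM. None of these lists had a marker without counts in all libraries. The shares of TEC models and of Malat1 and the sums of B cell, germinal centre and T cell markers did not overlap between the groups, and their part in the values below was not tested.

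Dctn6 encodes a small pointed-end subunit with a left-handed beta-helix fold, and in human cells its protein has been reported to act at kinetochores in mitosis. It had 1.18, 0.899 and 0.322 CPM in MIZ1KO replicates 1, 2 and 3, against 12.2, 10.9, 4.99 and 6.11 CPM in Control replicates 1 to 4. The groups did not overlap, and even the highest MIZ1KO value was far below the lowest Control value. Mean levels were 0.801 ± 0.438 CPM in the 3 MIZ1KO libraries and 8.55 ± 3.53 CPM in the 4 Control libraries (mean ± SD). These levels are low in depth: the MIZ1KO libraries held 11, 9 and 2 estimated counts, with exact 95% Poisson intervals of 5.49 to 19.7, 4.12 to 17.1 and 0.242 to 7.22, whereas the Control libraries held 93, 70, 38.3 and 61.4. The intervals cover counting error only.

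Fitted across all genes with edgeR's quasi-likelihood test, Dctn6 stood at -3.27 ± 0.60 (log2 fold change ± SE; adjusted p = 0.0093), the value that singled out the family. It was the only called member of 9. Of the 11618 genes tested, 5.96% were called in either direction and 4.05% were called lower (2.06% among protein-coding genes), and nothing is read from the members' count beside these shares. A log2 fold change as low as that of Dctn6 or lower was found for 0.344% of the genes tested. Without MIZ1KO replicate 1 the adjusted p was 0.0508 (edgeR), at a log2 fold change of -3.57. In bulk RNA, fewer cells that express a gene and less RNA per cell cannot be told apart.

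**Figure D1:**
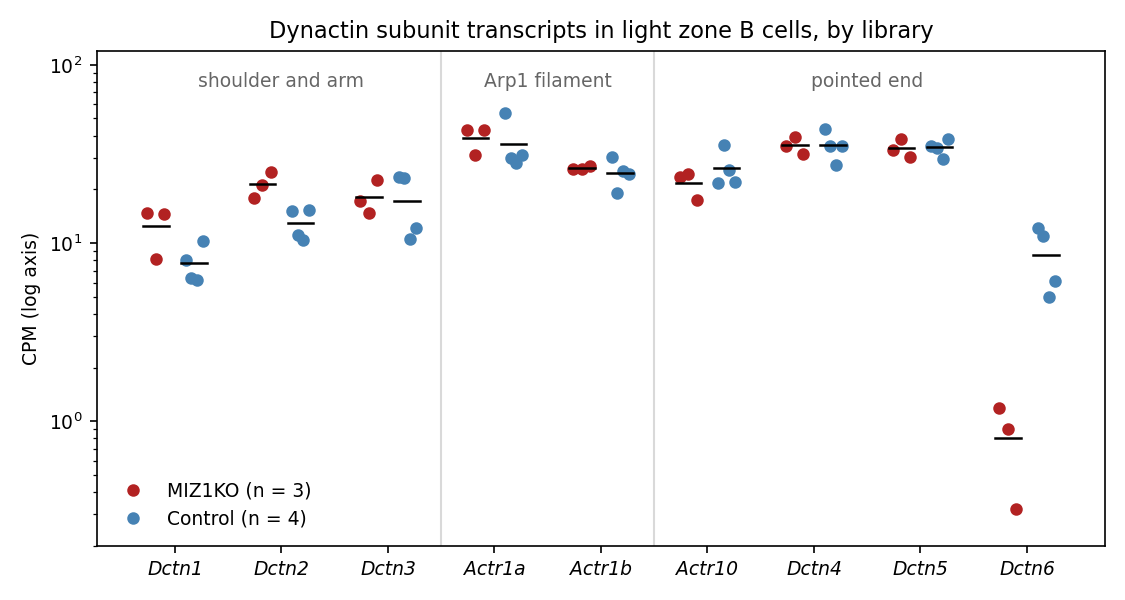
CPM of the 9 dynactin genes on a log axis, with 1 point per library, MIZ1KO left of Control for each gene, and bars at the group means. Dctn6 lies between 0.322 and 1.18 CPM in MIZ1KO and between 4.99 and 12.2 CPM in Control. Dctn1 and Dctn2 average higher in MIZ1KO (12.5 against 7.69 CPM and 21.4 against 13.0 CPM). The groups of Dctn1 and of the remaining 6 members overlap.

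The Dctn6 gene (ENSMUSG00000031516) lies on chromosome 8 from 34090420 to 34108796 on the minus strand in GRCm38, with 10 transcript models in GENCODE vM21 and 2853 exonic bases. On the opposite strand a lincRNA model, Gm26768, spans 1602 bases of it and shares 337 exonic bases. Gm26768 had 0 counts in each MIZ1KO library and in Control replicate 1, and 1, 13.7 and 5.59 counts in Control replicates 2, 3 and 4. In Control replicates 3 and 4 the fractional counts of both models added up to the whole numbers 52 and 67. Those libraries also had the lower Dctn6 levels in Control. Which of the reads came from which strand was not tested. With the counts of both models joined, Control replicates 1 to 4 had 93, 71, 52 and 67 counts and MIZ1KO still 11, 9 and 2. The joint level averaged 0.801 ± 0.438 CPM in the 3 MIZ1KO libraries against 9.20 ± 2.84 CPM in the 4 Control libraries (mean ± SD), with a log2 fold change of -3.38 ± 0.57. This differed from the value for Dctn6 alone by less than the standard error, and the joint level in Control replicates 3 and 4, 6.82 and 6.72 CPM, still lay below the 12.2 and 11.0 CPM of Control replicates 1 and 2.

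**Figure D2:**
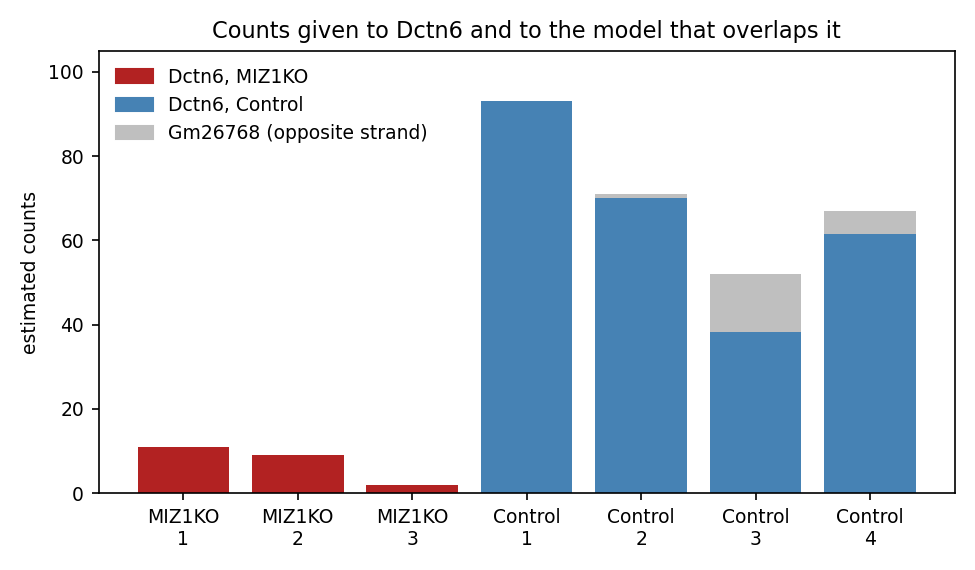
Estimated counts of Dctn6 (coloured) and of Gm26768, the overlapping model on the opposite strand (grey), stacked for each of the 7 libraries. The joint counts are 11, 9 and 2 in MIZ1KO and 93, 71, 52 and 67 in Control.

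The other pointed-end subunits did not share this difference. Dctn5, the beta-helix partner that binds directly to Dctn6 and is needed for recruiting endosomal cargo, had 33.1, 38.6 and 30.4 CPM in MIZ1KO and 35.2, 34.1, 29.8 and 38.6 CPM in Control. The groups overlapped over nearly their whole range, and the log2 fold change was -0.01 ± 0.22. Dctn4, the p62 subunit of the pointed-end complex, had 35.2, 39.3 and 31.5 CPM in MIZ1KO and 43.8, 35.0, 27.6 and 35.0 CPM in Control, with a log2 fold change of 0.01 ± 0.23. Here too the MIZ1KO libraries lay inside the Control range. Actr10, the actin-related protein Arp11 that ends the filament, had 23.3, 24.4 and 17.4 CPM in MIZ1KO and 21.6, 35.6, 25.7 and 22.0 CPM in Control. Its groups overlapped as well, with a log2 fold change of -0.25 ± 0.26.

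Set against its partners within each library, where the scaling between libraries drops out, Dctn6 was low in the same way. The ratios use the same Dctn6 counts by which the family was chosen, so they too are a description. The ratio of Dctn6 counts to Dctn5 counts was 0.0357, 0.0233 and 0.0106 in MIZ1KO and 0.347, 0.320, 0.169 and 0.160 in Control. The ratio to Dctn4 counts was 0.0335, 0.0229 and 0.0102 in MIZ1KO and 0.278, 0.311, 0.182 and 0.176 in Control. The groups did not overlap in either ratio, nor in the ratio to Actr10, which was 0.0507, 0.0369 and 0.0185 in MIZ1KO and 0.564, 0.306, 0.195 and 0.280 in Control.

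In the shoulder and arm, Dctn1 and Dctn2 were somewhat higher in MIZ1KO without passing the test over all genes. Dctn1 encodes the p150-Glued arm that binds dynein and microtubules, and had 14.8, 8.09 and 14.6 CPM in MIZ1KO against 8.00, 6.38, 6.17 and 10.2 CPM in Control. MIZ1KO replicate 2 lay inside the Control range, so the groups overlapped, and the log2 fold change was 0.66 ± 0.35 (adjusted p = 0.254, edgeR). Dctn2 encodes dynamitin, whose excess breaks the complex apart, and had 17.9, 21.2 and 25.1 CPM in MIZ1KO against 15.1, 11.0, 10.4 and 15.3 CPM in Control. Each MIZ1KO library lay above each Control library, at 0.70 ± 0.28 on the log2 scale (adjusted p = 0.130, edgeR). Dctn2 and Dctn6 were the 2 of 9 members whose groups did not overlap, where 19.5% of all genes tested had no overlap, 8.74% being higher and 10.8% lower in MIZ1KO. Dctn3, the smallest shoulder subunit, had 17.3, 14.7 and 22.5 CPM in MIZ1KO and 23.6, 23.0, 10.5 and 12.1 CPM in Control, with a log2 fold change of 0.07 ± 0.32. Its Control libraries fell apart into higher and lower levels that enclosed all of the MIZ1KO values.

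The filament genes were close to equal in mean level. Actr1a, the main Arp1 gene, had 43.0, 31.2 and 43.0 CPM in MIZ1KO and 53.8, 30.2, 28.1 and 31.4 CPM in Control, a log2 fold change of 0.12 ± 0.26. Control replicate 1 stood above all other libraries, and without it the log2 fold change was 0.38, which was not called. Actr1b, its paralogue, had 26.1, 26.1 and 27.2 CPM in MIZ1KO and 30.3, 19.1, 25.3 and 24.3 CPM in Control, a log2 fold change of 0.09 ± 0.24, and the MIZ1KO libraries lay within the Control range. The paralogues can be told apart in sequence: none of the 50-base words in the transcript models of Actr1a, and none in those of Actr1b, occurred in a transcript of another gene in GENCODE vM21. For Dctn6 the share of such words found in other genes was 9.49%, with Gm26768 as the main partner, and for each of the remaining members it was at most 0.856%.

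Over all 9 members the median log2 fold change was 0.07, against -0.03 over all genes tested, and 6 of the 9 lay above 0. Summed over the members, dynactin transcripts reached 212, 204 and 212 CPM in MIZ1KO and 244, 205, 169 and 195 CPM in Control, with the MIZ1KO sums inside the Control range.

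Levels of different genes were compared per length, as CPM per kilobase of the longest APPRIS principal transcript. In MIZ1KO the order from high to low was Dctn5, Dctn3, Actr1a, Dctn2, Dctn4, Actr1b, Actr10, Dctn1 and Dctn6, and in Control it was Dctn5, Dctn3, Actr1a, Dctn4, Actr1b, Dctn2, Dctn6, Actr10 and Dctn1. Dctn6 thus stood last in MIZ1KO, at 0.641 ± 0.351 CPM per kilobase (SD, n = 3), and between Dctn2 and Actr10 in Control, at 6.84 ± 2.83 CPM per kilobase (SD, n = 4). In MIZ1KO its libraries did not overlap those of Dctn1 just above it. In Control, each gene from Dctn5 down to Actr10 overlapped its neighbour in the order, so these neighbours do not differ beyond their spread, and only Dctn1, at 1.79 ± 0.44 CPM per kilobase, lay apart below the rest. At the top, Dctn5 had 22.2 ± 2.71 CPM per kilobase in MIZ1KO and 22.5 ± 2.37 in Control. Per kilobase of all exonic bases in place of 1 transcript, Dctn6 was again last in MIZ1KO and stood sixth of 9 in Control, while Dctn3 came above Dctn5 in both groups.

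The log2 values that the authors deposited gave the same picture on a compressed scale. They come from the same libraries and are no separate evidence. Dctn6 stood at 4.54, 4.47 and 4.37 in MIZ1KO and at 5.69, 5.61, 5.12 and 5.24 in Control, a difference of -0.95 on that scale, without overlap. The differences of the other members lay between -0.14 and 0.42, with Dctn2 the highest at 0.42.

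TEC models took 0.544%, 0.603% and 0.923% of the counts outside rRNA in MIZ1KO replicates 1 to 3, where Dctn6 had 1.18, 0.899 and 0.322 CPM. They took 1.02%, 1.62%, 2.58% and 1.95% in Control replicates 1 to 4, where Dctn6 had 12.2, 10.9, 4.99 and 6.11 CPM. With the TEC share as a covariate the log2 fold change of Dctn6 was -4.64 (adjusted p = 0.0076, edgeR), and those of the other members ran from -0.57 to 0.69 with 0 called. The TEC share did not overlap between the groups, so this fit separates it from the genotype only poorly. In that fit Dctn3, Dctn4, Actr1a and Actr1b stood below 0, at -0.57, -0.56, -0.51 and -0.09, in place of 0.07, 0.01, 0.12 and 0.09. With offsets for length and GC content, Dctn6 stood at -3.11 and 5 other members changed sign: Dctn3 to -0.05, Dctn5 to 0.25, Actr1a to -0.06, Actr1b to -0.13 and Actr10 to 0.11. Dctn4 stood at 0.40 there, and none of these was called. The direction of these small differences thus depends on the setting.

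On chromosome 8, none of the tested genes that start within 250 kb of Dctn6 was called. Gm10131, a predicted gene that starts 2.94 kb upstream, averaged 22.5 ± 6.02 CPM in the MIZ1KO libraries and 20.1 ± 10.2 CPM in the Control libraries (mean ± SD), at 0.18 ± 0.35 on the log2 scale. Saraf, a regulator of store-operated calcium entry, measured 0.46 ± 0.58, and Leprotl1, a membrane protein of endosomal sorting, measured -0.06 ± 0.58. Rbpms, an RNA-binding protein, measured -1.08 ± 0.63, at 1.13 ± 0.51 CPM in MIZ1KO and 2.28 ± 0.67 CPM in Control without overlap (adjusted p = 0.298, edgeR). Among the models that overlap other members, the antisense model Gm15624 in Dctn1 was the one tested, with -0.04 ± 0.60, and Il11ra1 in Dctn3, Gm15489 in Dctn5 and 4933424G06Rik in Actr1b had at most 5 counts summed over MIZ1KO and at most 7 over Control, and share no exonic bases with them.

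Among protein-coding genes with a mean of at least 10 CPM, 6301 in all, the profile over the 7 libraries was most like that of Dctn6 for Rpl22, Vamp4, Crisp3, Rbm3 and Usp53. Likeness was the root mean square difference between log2 CPM profiles, each centred on its own mean, and came to 0.687 for Rpl22, 0.709 for Vamp4, 0.832 for Crisp3, 0.834 for Rbm3 and 0.921 for Usp53. The nearest dynactin member, Actr10, ranked 1234th with 1.48, and Dctn2 came last of the 7 other members ranked, 5872nd with 1.98. Dctn1, with a mean of 9.76 CPM, was not ranked. Dctn6 itself, with a mean of 5.23 CPM, lay below this cut, so genes at its own level were not compared with it. Rpl22, which encodes a large-subunit ribosomal protein, had 91.1, 129 and 85.3 CPM in MIZ1KO and 566, 453, 219 and 345 CPM in Control. Like Dctn6 it was lowest in MIZ1KO replicate 3 and, within Control, highest in replicate 1 and lowest in replicate 3. Vamp4, a SNARE of the trans-Golgi network, had 5.48, 10.8 and 4.34 CPM in MIZ1KO and 35.8, 24.3, 26.5 and 36.2 CPM in Control. Since all 5 were chosen for following Dctn6, their difference between the genotypes is a description.

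**Figure D3:**
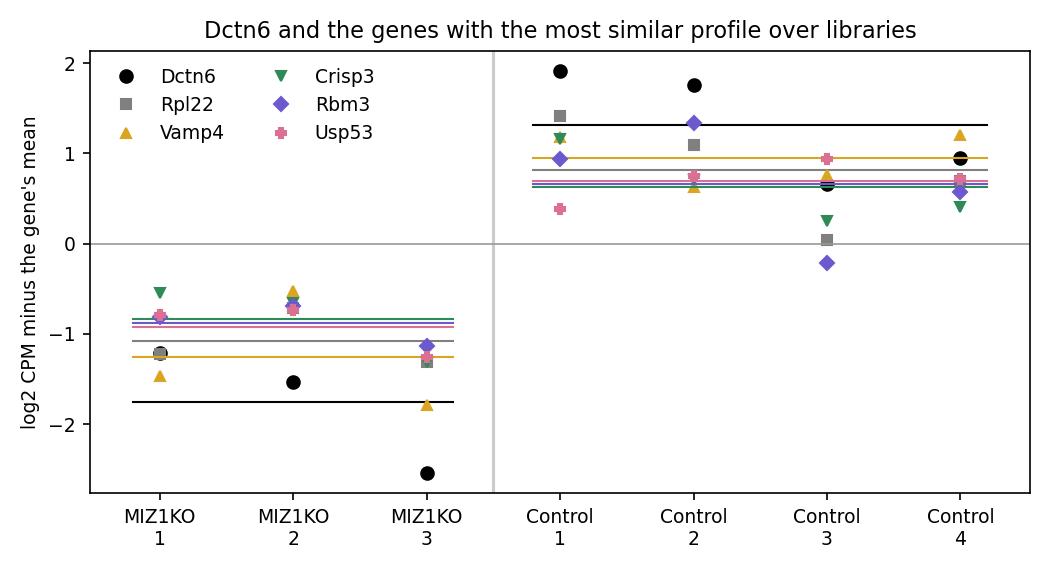
Log2 CPM minus the gene's own mean over the 7 libraries, for Dctn6 (black) and the 5 genes with the most similar profile, with lines at the group means. The 5 were ranked among protein-coding genes with a mean of at least 10 CPM. All 6 genes lie below 0 in the MIZ1KO libraries, and Dctn6 has the widest swing, down to -2.54 in MIZ1KO replicate 3.

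The rest of the dynein pathway held 55 listed genes found in the table, of which 46 were tested, and 1 of these rose and 0 fell in MIZ1KO. Over all genes tested 1.9% were called higher and 4.05% lower. The median log2 fold change of the 46 was 0.04, against -0.03 over all genes. Nudc, a chaperone that works with LIS1 on dynein, was the gene that rose. It had 46.7, 45.3 and 33.8 CPM in MIZ1KO and 27.8, 16.5, 16.8 and 16.9 CPM in Control, at 1.11 ± 0.25 on the log2 scale (adjusted p = 0.0198, edgeR), and the groups did not overlap. The call was lost at a nearly equal log2 fold change without MIZ1KO replicate 1 (1.08, adjusted p = 0.117, edgeR), Control replicate 2 (1.04, adjusted p = 0.0647) and Control replicate 4 (1.10, adjusted p = 0.0591). It was also lost with offsets for length and GC content (0.80, adjusted p = 0.054) and when the share of TEC models was a covariate, where the log2 fold change was 0.32 (0.732).

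**Figure D4:**
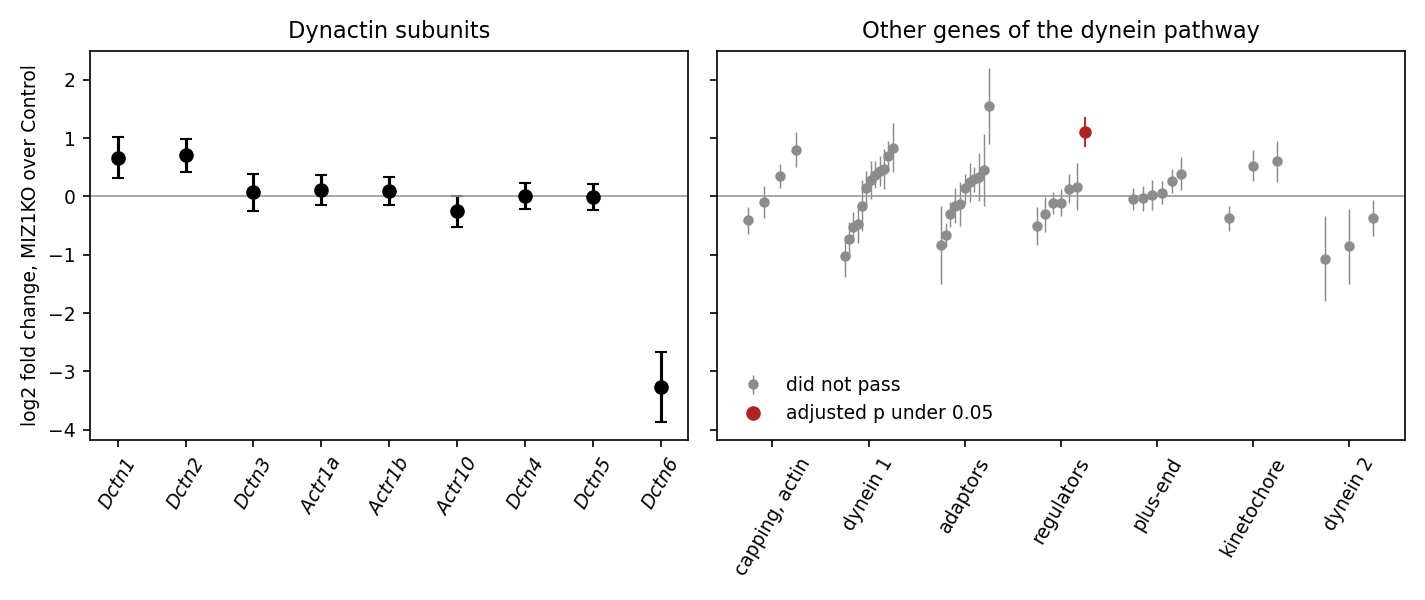
Log2 fold changes of MIZ1KO over Control with standard errors for the 9 dynactin genes (left) and for 46 tested genes of 7 dynein pathway lists (right). Dctn6 lies at -3.27, the other members lie between -0.25 and 0.70, and Nudc is the red point among the regulators.

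Of the other regulators, none was called among 7 tested apart from Nudc, and the median of the list was -0.10. Pafah1b1, which encodes LIS1 and holds dynein in an open state, measured -0.11 ± 0.19. The Nudc relatives Nudcd1 and Nudcd2 measured -0.31 ± 0.30 and -0.51 ± 0.33. Of the proteins that complete the dynactin filament, 0 of 4 were called, with a median of 0.13. The capping protein subunits Capza1, Capza2 and Capzb measured -0.09 ± 0.27, -0.41 ± 0.22 and 0.35 ± 0.21. Actb, the source of the single actin in the filament, had 5603, 5283 and 5981 CPM in MIZ1KO and 4043, 3392, 2359 and 3100 CPM in Control, without overlap, at 0.80 ± 0.30 (adjusted p = 0.109, edgeR).

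Cytoplasmic dynein 1, the motor itself, had 12 of 14 genes tested and 0 called, with a median log2 fold change of 0.21. Dync1h1, the heavy chain, averaged 200.1 ± 75.4 CPM in the MIZ1KO libraries and 123 ± 25.3 CPM in the Control libraries (mean ± SD), at 0.69 ± 0.25 (adjusted p = 0.101, edgeR). The light intermediate chain Dync1li2, which binds cargo adaptors, measured -0.53 ± 0.25. The light chain genes Dynlt1c and Dynlt3 measured -1.03 ± 0.35 and -0.73 ± 0.29. Other light chains went the other way: Dynll1, Dynll2, Dynlrb1 and Dynlt1b measured 0.44 ± 0.25, 0.84 ± 0.41, 0.38 ± 0.23 and 0.48 ± 0.34. The remaining Dynlt1 copies, Dynlt1a and Dynlt1f, measured -0.16 ± 0.44 and -0.47 ± 0.33. Dynlt3 was called with the TEC share as a covariate (-1.88, adjusted p = 0.0122, edgeR) and stood at 0.06 with length and GC offsets. Dynlt1c was called without MIZ1KO replicate 2 (-1.45) and without Control replicate 1 (-1.14), and reads of the near-identical Dynlt1 copies on chromosome 17 may be divided among them by the counting. The brain-enriched intermediate chain Dync1i1 and the light chain Dynlrb2 had no counts.

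Activating adaptors join dynein to dynactin and cargo, and 0 of 11 tested members of 15 were called, with a median of 0.14. Hook3, an adaptor of the Golgi and endosomes, averaged 71.2 ± 12.3 CPM in the MIZ1KO libraries and 112 ± 17.0 CPM in the Control libraries (mean ± SD), without overlap, at -0.66 ± 0.21 (adjusted p = 0.0643, edgeR). Its log2 fold change was -0.07 with length and GC offsets and -0.08 with the TEC share as a covariate. Rab11fip3, the adaptor of recycling endosomes, measured 1.55 ± 0.65, with 7.52 CPM in MIZ1KO replicate 1 and at most 3.22 CPM in the other MIZ1KO libraries, against 0.393 to 2.33 CPM in Control. Without MIZ1KO replicate 1, its highest library, the log2 fold change was 0.70. The mitochondrial adaptors Trak1 and Trak2 measured -0.31 ± 0.21 and 0.29 ± 0.21. The plus-end proteins, which help load dynactin onto growing microtubules, had 6 of 7 members tested and 0 called, with a median of 0.04. Among them Mapre1 and Mapre2 measured 0.06 ± 0.20 and -0.04 ± 0.19, and Clip2 and Clasp2 measured 0.39 ± 0.29 and 0.27 ± 0.21.

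The proteins that bring dynein to kinetochores were each short of the test, 0 of 3 called with a median of 0.53. Zw10 and Zwilch measured 0.53 ± 0.27 and 0.60 ± 0.35, and Kntc1 measured -0.38 ± 0.21. Dynein 2, the motor of cilia, had 3 of 5 genes tested (6 listed symbols, of which Dynlt2b is a newer name of Tctex1d2) and 0 called, at a median of -0.86 on low levels: Wdr34 and Tctex1d2 averaged 1.73 and 1.52 CPM in MIZ1KO and 3.42 and 3.05 CPM in Control, and Dync2h1 measured -0.37 ± 0.31. The Control mean of Wdr34 rests on 8.39 CPM in replicate 1, and without that library Wdr34 measured -0.17 and Tctex1d2 -0.37. Without MIZ1KO replicate 2, Wdr34 measured -0.41. Across these 7 lists, 7 of the 46 tested genes had an unadjusted p under 0.05 in edgeR, against 2856 of 11618 over all genes. The groups of 8 of the 46 did not overlap, where 19.5% of all genes tested had no overlap. Nudc, Actb, Clasp2 and Zw10 were the higher ones in MIZ1KO, and Hook3, Dync1li2, Dynlt1c and Kntc1 the lower ones.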

How the data were processed

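Bulk RNA sequencing of polyA RNA gave 1 library for each of 7 samples, grouped by the genotype label. The authors deposited expected counts per gene, not normalized, and a table of log2 values across the libraries whose name speaks of variance stabilisation. The submitters' processing notes name STAR 2.5.2, RSEM 1.3.0, DESeq2 1.18.1, R 3.4.3 and the build GRCm38, with no role given. The sources used here give neither the strand setting nor the annotation release.

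Counts were rounded to whole numbers, filtered with filterByExpr and scaled by TMM, and 11618 genes were compared with the two-sided quasi-likelihood test of edgeR 4.0.16 (R 4.3.3, newer fit, robust) with Benjamini-Hochberg adjustment at 0.05. Log2 CPM used a prior count of 2. Standard errors came from the fold change and the F statistic. The procedure was tested on simulated data. Symbols, positions and lengths came from GENCODE vM21.

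No 2 libraries of a group agreed within sampling noise (lowest chi-square per degree of freedom 15.7). The members and the gene lists were chosen with earlier results of these data known. Genes were named by rule: all members, Zbtb17, overlapping and neighbouring genes, up to 4 genes per list by smallest p, and the 5 genes most like Dctn6. The other tested dynein light chains were given beside these. Alternatives were DESeq2 1.42.0, limma 3.58.1 (voom and deposited log2 values), other scaling, filters, gene sets and covariates, a replicate block and leaving out each library. Adding Gm26768 to Dctn6 was chosen after the data were seen.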

Additional observations from a re-analysis of the deposited data

Results flagged for a closer look

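Actr1a, the main Arp1 gene, had 53.8 CPM in Control replicate 1 and between 28.1 and 31.4 CPM in the other 3 Control libraries, a gap larger than Dixon's 95% critical value for 4 samples allows. It was the only such library among the 9 dynactin genes in Control, and chance gives such a gap in about 1 in 20 groups. As all 9 genes were examined, 1 such gap among them can readily arise by chance. Without Control replicate 1 the log2 fold change of Actr1a was 0.38, against 0.12 with all libraries, and it was not called in either fit (edgeR).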

How the results depend on the processing

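Dctn6 was called in 17 of 18 alternative settings, with log2 fold changes from -4.64 to -3.00 in those that used counts and -0.95 on the deposited log2 values. None of the other 8 members was called in any of them. All of these settings reuse the libraries by which the family was chosen, so the calls of Dctn6 remain a description. With single libraries left out, 0 to 1 members were called, 0 being without MIZ1KO replicate 1. Dctn6 rests on 2 to 11 counts in MIZ1KO, so depth limits the size of its fold change.

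Over all genes, 692 were called (221 higher, 471 lower). DESeq2 called 1085, limma-voom 342, limma on the deposited log2 values 429, protein-coding genes only 315 (140 higher, 175 lower), the TEC share as a covariate 297 (47 higher, 250 lower), and GC content and length offsets 342 (216 higher, 126 lower), with the median of all genes at 0.10 in place of -0.03. Leaving out single libraries gave 39 to 1350 calls, the lowest without MIZ1KO replicate 1 and the highest without Control replicate 1. Of the pathway genes, 1 was called, against 3 in DESeq2, 2 without a filter, 2 on the deposited log2 values, 4 with the TEC share, 0 with GC and length offsets, 2 with the replicate block, and 0 to 5 with single libraries left out. The causes were not tested.

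Same-numbered libraries of the groups correlated at 0.0233, 0.0665 and 0.162 in their deviations from the group means. MIZ1KO replicates 1 and 3 were closest to the Control library of the same number, and MIZ1KO replicate 2 to Control replicate 1 (0.134). These weak correlations do not settle whether the numbers pair the samples. The replicate block called 476 genes and gave Dctn6 a log2 fold change of -3.51 (adjusted p = 0.0043, edgeR).

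Some uncalled genes outside the dynactin list changed sign, and none of these values was a call. Named genes called in an alternative only were Dynlt3 (-1.88 with the TEC share, -0.91 with the replicate block), Capza1 (-1.16) and Dync1h1 (1.37) with the TEC share, Dync1h1 also without MIZ1KO replicate 2 (1.03), Dynlt1c in 2 fits with a library left out, Hook3 (-0.63 in DESeq2, -0.75 without Control replicate 1) and Actb in 4 settings (0.61 to 0.93). With GC and length offsets, Zbtb17 measured -0.37, Capza2 0.27, Capza1 0.31, Dynlt3 0.063, Nudcd2 0.012, Nudcd1 0.10, Pafah1b1 0.32, Clip2 -0.073, Mapre2 0.10, Dync2h1 0.024, Leprotl1 0.12 and Gm15624 0.068. With the TEC share, Capzb measured -0.17, Pafah1b1 0.10, Mapre1 -0.40, Dync2h1 0.78, Gm10131 -0.82 and Gm15624 0.68. Zbtb17 measured -0.00083 among protein-coding genes. Without a filter Mapre2 measured 0.0030 and Gm15624 0.00085, and without ribosomal RNA genes 0.0056 and 0.0063. In limma-voom Leprotl1 measured 0.21 and Gm15624 0.26, and on the deposited log2 values 0.026 and 0.016; with the replicate block Leprotl1 measured 0.15. With single libraries left out, Zbtb17 ran from -0.093 to 0.51, Capza1 from -0.24 to 0.17, Pafah1b1 from -0.21 to 0.045, Mapre2 from -0.067 to 0.077, Leprotl1 from -0.32 to 0.40, Saraf from -0.42 to 0.93 and Gm15624 from -0.31 to 0.65.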

Other observations

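Bicdl1, a dynein adaptor of Rab6 vesicles, did not pass the filter on low counts and was not tested. It averaged 0.102 ± 0.10 CPM over the MIZ1KO libraries and 1.39 ± 0.944 CPM over the Control libraries (mean ± SD), and was picked out after its values were seen. The other adaptors below the filter, Bicdl2, Ninl and Hap1, averaged at most 0.22 CPM in MIZ1KO and at most 0.276 CPM in Control.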
